A study of Mus musculus with 16 samples.

Results

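The nuclei described here are the Vip-positive GABAergic nuclei of the mouse medial prefrontal cortex. A nucleus belonged to this set when Gad1 and Gad2, the enzymes that make GABA, summed to at least 2 unique molecular identifiers (UMIs, the count of distinct RNA molecules captured), when Vip had at least 1 UMI, when Sst, Pvalb and Lamp5 had 0, and when Slc17a7, the vesicular glutamate transporter of excitatory neurons, had at most 1. The rule found 348 nuclei of 114512 (0.304%), which were 6.91% of the 5037 nuclei that met its Gad1, Gad2 and Slc17a7 limits, hereafter the GABAergic nuclei. The table holds more nuclei than the study states it kept after filtering, and which nuclei differ was not worked out. Single-nucleus RNA sequencing had been done on 16 male mice at 22 weeks of age, 4 in each of 4 groups, to ask how a history of repeated alcohol intoxication and a genetic predisposition to Alzheimer disease act on each cell type. WT control mice were B6;129 animals kept in air and injected with pyrazole, an inhibitor of alcohol breakdown, in saline. WT alcohol mice had the same background and went through cycles of chronic intermittent alcohol vapor with ethanol and pyrazole injections, 3xTg-AD mice received air and pyrazole, and 3xTg-AD alcohol mice received vapor, ethanol and pyrazole, so that pyrazole was shared by all 16 animals. The mutant alleles of the 3xTg-AD line include human transgenes for amyloid precursor protein and tau under a Thy1 promoter cassette, which drives expression in neurons. Each mouse was 1 library, and the human transgenes were not among the 19999 genes of the table, so genotype could not be checked from them.

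Vip interneurons arise from the caudal ganglionic eminence, unlike Sst and Pvalb interneurons, which arise from the medial ganglionic eminence. They release GABA and vasoactive intestinal peptide and mainly inhibit other interneurons, above all Sst cells, so that their firing releases pyramidal neurons from inhibition. They receive long-range cortical input and serotonergic and cholinergic input, and some express cholecystokinin and the cannabinoid receptor Cnr1. The Vip gene (ENSMUSG00000019772) lies on the plus strand of chromosome 10, from 5639218 to 5647617 in mm10.

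The libraries held 4955 to 9096 nuclei and 9622031 to 17544364 UMIs each. The 348 members held 594637 UMIs in all, with a median of 1581 UMIs (612 to 4362) and 1062.5 genes per nucleus, against a median of 1543 UMIs over all nuclei. Of the barcodes, 1694 occurred in more than 1 library, and 14 members carried such a barcode, but no barcode was shared by 2 members. Libraries from 3 mice stood apart in Gm42418, a transcript that overlaps ribosomal RNA: member nuclei of WT control mice 26 and 27 and of 3xTg-AD mouse 12 had 37794, 30745 and 22913 CPM (a gene's counts scaled to a fixed library total), whereas the other 12 mice fitted had 2227 to 4778 CPM. Genes that passed between groups are therefore given with and without these 3 mice, whose removal left 2 WT control and 3 3xTg-AD mice.

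The first question was whether the rule isolates Vip interneurons, and the data supported the name for only some of the nuclei. Of the members, 186 (53.4%) had a single Vip UMI, 162 (46.6%) had at least 2, 89 had at least 5, and the highest count was 25. A single Vip UMI was found in 8.03% of the 2317 GABAergic nuclei without Sst, Pvalb and Lamp5 (median 1572 UMIs) and in 8.34% of 29001 glutamatergic nuclei, defined by at least 2 Slc17a7 and no Gad1 or Gad2 UMIs (median 2535 UMIs), a cell type that should lack the gene. After each nucleus had been thinned to 1000 UMIs, with 508 and 2865 shallower nuclei left out, these shares were 5.25% and 3.74%. By mouse, the share with 1 Vip UMI was larger among the GABAergic than among the glutamatergic nuclei in 6 of 16 animals at the measured depths and in 14 of 16 after thinning, a count added after the data were seen. The thinned shares can include nuclei that held at least 2 Vip UMIs before thinning, which were 6.99% of these GABAergic and 0.710% of the glutamatergic nuclei. They therefore cannot tell whether a single Vip UMI, as in the 186 members, was more frequent in GABAergic nuclei at equal depth. The share of the 186 nuclei that hold free Vip RNA was not measured.

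Higher Vip counts differed more. At least 2 Vip UMIs were found in 6.99% of those GABAergic nuclei and 0.710% of the glutamatergic nuclei (6.63% and 0.191% after thinning), with the larger share among the GABAergic nuclei in 16 of 16 mice. At least 5 Vip UMIs were found in 3.84% and 0.0621%. Of the markers that had to be absent, Sst had a UMI in 31.1% of glutamatergic nuclei, Lamp5 in 19.3% and Pvalb in 2.85%, and whether these came from free RNA or from the nuclei themselves was not tested. Of 702 GABAergic nuclei with a Vip UMI, only 49.6% became members, the others holding Sst, Pvalb or Lamp5 as well.

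**Figure D1:**
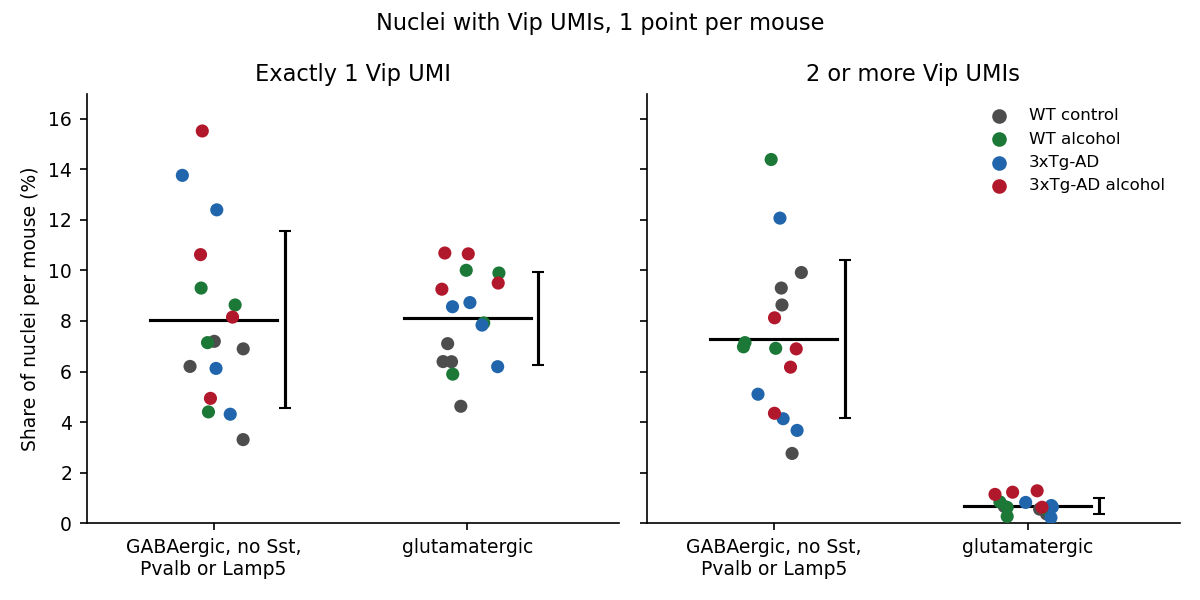
Share of nuclei per mouse (y axis, percent) with exactly 1 Vip UMI (left) and 2 or more (right), among GABAergic nuclei without Sst, Pvalb and Lamp5 and among glutamatergic nuclei (x axis). Points are mice coloured by group, and lines and bars are the mean and SD over 16 mice: the shares with 1 UMI, not thinned to equal depth, lie together (8.06 ± 3.51 and 8.10 ± 1.85), whereas the shares with at least 2 lie apart (7.28 ± 3.11 and 0.69 ± 0.31).

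Of 27 markers of caudal and Vip interneurons that the rule did not use, 20 had a UMI in a larger share of the members with at least 2 Vip UMIs than of those with 1, 5 in a smaller share and 2 in neither (19, 6 and 2 after thinning). The division at 2 Vip UMIs was chosen after the values were seen, so the shares are given as a description without a test. Adarb2, an RNA-editing family member that marks interneurons of caudal origin, had a UMI in 82.7% of members with at least 2 Vip UMIs and in 29.6% of those with 1, against 21.7% of GABAergic nuclei with none of Vip, Sst, Pvalb and Lamp5, 42.2% of Lamp5, 12.2% of Sst, 6.67% of Pvalb and 2.85% of glutamatergic nuclei. Its share was higher at 2 or more Vip UMIs in 16 of 16 mice, and after thinning the shares were 74.5%, 36.2% and 21.2% for members with at least 2, members with 1 and nuclei with none. Members with 1 Vip UMI were thus closer to the nuclei without any of the 4 markers than to the members with more Vip. Median depths were 1645 UMIs for members with at least 2 Vip UMIs, 1459.5 for those with 1, 1569 for nuclei with none of the 4 markers, 1899 for Sst, 2213 for Pvalb, 1933 for Lamp5 and 2535 for glutamatergic nuclei.

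Prox1, the homeobox factor required in interneurons of caudal origin, was found in 30.9% of members with at least 2 Vip UMIs, 5.38% of members with 1 and 0.710% of glutamatergic nuclei, and was higher in the first in 14 mice. Npas1, a basic helix-loop-helix factor, was found in 32.1%, 8.60% and 1.02%, with the first the higher in 16 mice. Tac2, the gene of neurokinin B, was found in 30.2%, 5.91% and 2.23%. Crh, which encodes corticotropin-releasing hormone, was found in 21 of the 162 members with at least 2 Vip UMIs, 1.08% of those with 1 and 0.531% of glutamatergic nuclei, and the synaptic vesicle protein gene Synpr in 37.7%, 8.06% and 9.99%. Penk, the enkephalin precursor, was found in 12.3%, 4.30% and 1.79%. Of the 162 members with at least 2 Vip UMIs, 9 held Calb2, the calretinin gene that marks a large share of Vip cells, so that Calb2 could not divide the members at this depth.

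Of 45 receptors for modulators, 23 were found in a larger share of members with at least 2 Vip UMIs, 16 in a smaller share and 6 in equal shares (20, 19 and 6 after thinning), so the list as a whole did not run 1 way. The receptors named below all had the larger share at 2 or more Vip UMIs and do not stand for the list. Cnr1, the cannabinoid receptor on the terminals of cholecystokinin cells, was found in 62.3% of members with at least 2 Vip UMIs and 26.3% of members with 1, against 25.4% of glutamatergic nuclei. Npy1r and Npy2r, receptors for neuropeptide Y, were found in 27.8% and 11.7% of the former and 4.84% and 1.61% of the latter. Adra1b, an adrenergic receptor, was found in 22.2% and 5.91%, and the ionotropic serotonin receptor gene Htr3a in 9.26% and 2.69%. Cck did not divide them: it was found in 72.8% and 75.3% of members and in 76.3% of glutamatergic nuclei, a cell type that can express Cck itself. Chat and Slc18a3, the enzyme and transporter of acetylcholine that some Vip cells express, were found in 0 of 348 members, which allows a share of up to 0.862% of nuclei with a UMI.

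Of 19 markers of medial origin, 12 were found in a larger share of members with 1 Vip UMI, 5 in a larger share of those with at least 2 and 2 in neither, and of 15 markers of Lamp5 and Sncg cells the counts were 6, 9 and 0, with the same counts after thinning. Lhx6, the factor that specifies Sst and Pvalb cells, had a UMI in 6.99% of members with 1 Vip UMI and 1.85% of those with at least 2, against 14.8% of Sst nuclei. Sox6, which acts downstream of Lhx6, was found in 10.8% and 1.23%, and Satb1, a chromatin organizer of Sst cells, in 17.2% and 5.56%. Meis2, a homeobox factor of other GABAergic neurons that is also expressed in excitatory cells, was found in 25.8% of members with 1 Vip UMI, 6.79% of those with at least 2 and 44.3% of glutamatergic nuclei. In WT control mouse 27, Meis2 was found in 15 of 28 members (53.6%), and 20 of these 28 had a single Vip UMI, whereas in the other 15 mice its share was 0 to 30.4%. Of 12 astrocyte markers, 10 were found in a larger share of members with 1 Vip UMI (9 after thinning), among them Slc1a3, the astrocytic glutamate transporter, in 19.4% and 6.79%. The members are therefore called here by their rule, Vip-positive GABAergic nuclei or Vip nuclei, and not by a cell type.

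**Figure D2:**
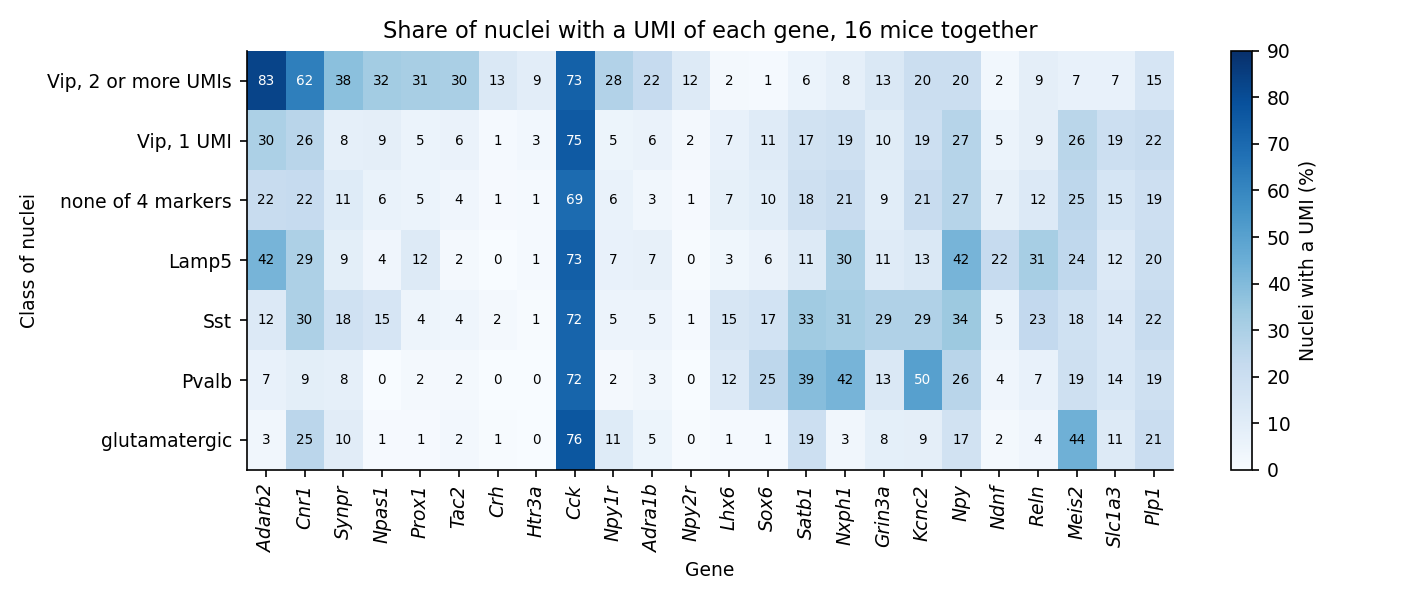
Heatmap of the percent of nuclei with at least 1 UMI of each gene (x axis), printed in each cell and shaded from 0 to 90, by class of nuclei (y axis), over 16 mice together. For Adarb2 the members with at least 2 Vip UMIs stand at 82.7%, and the members with 1 stand at 29.6%, near the 21.7% of nuclei with none of the 4 markers.

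The limits of the rule left most Vip-rich nuclei outside. Of 656 nuclei with at least 5 Vip UMIs in the whole table, 89 (13.6%) were members, and 498 (75.9%) were left out because Gad1 and Gad2 summed to less than 2. Of these 498, 209 had a sum of 1 and 289 a sum of 0, and Adarb2 was found in 91.9% and 89.3% of them, against 93.3% of members with at least 5 Vip UMIs. A further 58 had a Sst, Pvalb or Lamp5 UMI, and 11 had more than 1 Slc17a7 UMI. Just inside the limits, 229 members had a Gad1 and Gad2 sum of exactly 2 (Adarb2 in 50.2%) and 96 had 1 Slc17a7 UMI (Adarb2 in 45.8%). Just outside, 887 nuclei had a sum of 1 with all else met (31.9%), 32 had 2 Slc17a7 UMIs (28.1%), 132 had 1 Sst UMI (45.5%), 46 had 1 Lamp5 UMI (60.9%), 19 had 1 Pvalb UMI (42.1%) and 1969 had no Vip (21.7%).

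Members came from every mouse. WT control mice 26, 27, 28 and 36 gave 22, 28, 20 and 16. WT alcohol mice 6, 7, 17 and 18 gave 35, 18, 32 and 20. 3xTg-AD mice 12, 13, 14 and 21 gave 20, 19, 19 and 11, and 3xTg-AD alcohol mice 4, 31, 33 and 34 gave 26, 23, 30 and 9. The share of members with at least 2 Vip UMIs ranged from 21.1% in 3xTg-AD mouse 13 to 75.0% in WT control mouse 36. Its group means were 54.5% ± 19.3 in WT control and 54.1% ± 9.36 in WT alcohol mice (SD). They were lower in the 3xTg-AD groups, at 41.3% ± 24.1 without and 41.1% ± 11.0 with alcohol, with overlap and without a test. The nuclei summed for the genotype comparisons thus differed in make-up at the mean.

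As a share of GABAergic nuclei, the members made up 6.70% ± 1.46 in WT control, 6.39% ± 1.40 in WT alcohol, 7.85% ± 2.08 in 3xTg-AD and 7.05% ± 1.92 in 3xTg-AD alcohol mice (SD, n = 4 mice), and the 4 ranges overlapped. None of 7 comparisons passed a two-sided permutation test (exact for 4 against 4 mice, where the smallest p is 0.0286; adjusted p = 0.743 for each). The largest difference was 1.15 percentage points between 3xTg-AD and WT control (exact p = 0.514). The median UMI count per member was 1502 ± 387, 1629 ± 308, 1429 ± 200 and 1925 ± 391 in the same order. It was 496 higher in 3xTg-AD alcohol than in 3xTg-AD mice, with no overlap (exact permutation p = 0.0286, the smallest possible, adjusted over 7 comparisons to 0.2). Depth therefore moved with that comparison, and a thinned value is given beside the gene that passed in it.

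**Figure D3:**
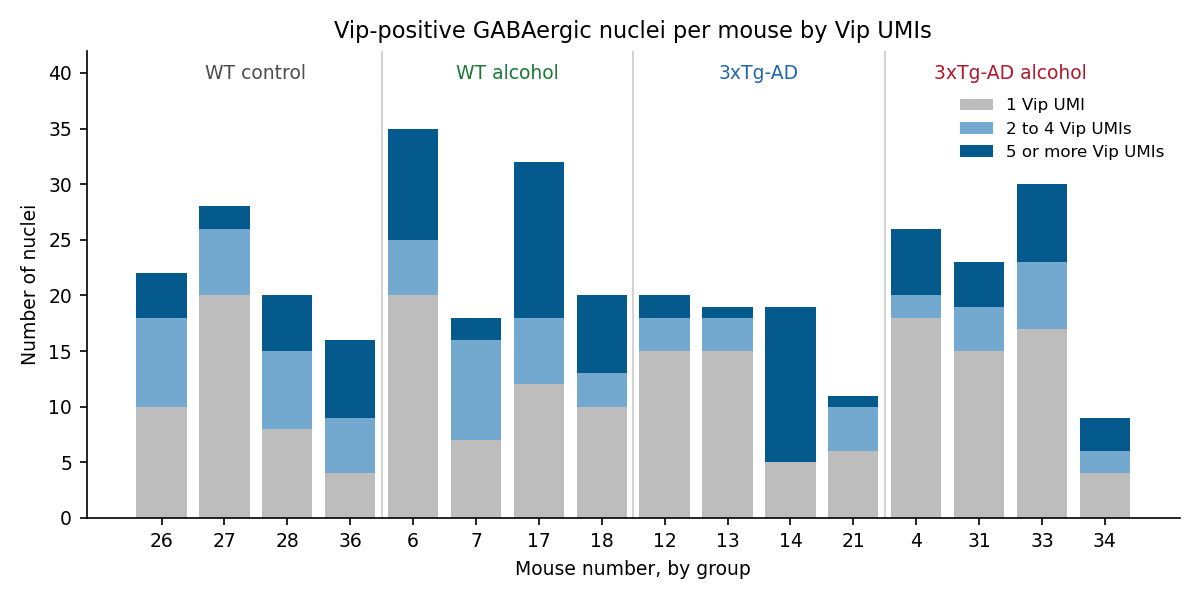
Number of member nuclei (y axis) in each of 16 mice (x axis, by group), stacked by Vip UMIs per nucleus (1, 2 to 4, and 5 or more). The totals run from 9 in 3xTg-AD alcohol mouse 34 to 35 in WT alcohol mouse 6, and 3xTg-AD mouse 14 has 14 of its 19 members at 5 or more.

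Vip nuclei were next compared with Sst, Pvalb and Lamp5 nuclei from the same mice. These were chosen by the same limits with Sst, Pvalb or Lamp5 as the single marker present (1409, 165 and 445 nuclei). A UMI of Sst, Lamp5 or Pvalb was also found in 31.1%, 19.3% and 2.85% of glutamatergic nuclei. The share of each class that belongs to the interneuron type of its marker was not measured. The classes are therefore named by their rule, and differences between them are not read as differences between cell types. UMIs were summed per mouse and class and tested with edgeR's quasi-likelihood test with mouse as a block. The 7 genes of the rule were left out of the counts. The 3 comparisons share the Vip nuclei and are not independent of each other. Against Sst nuclei, 102 of 1324 genes passed an adjusted p of 0.05 (7.7%; 56, or 4.23%, higher and 46, or 3.47%, lower in Vip nuclei; 15 mice). Against Pvalb nuclei, 47 of 427 passed (11.0%; 17, or 3.98%, higher and 30, or 7.03%, lower; the 8 mice with at least 10 of both), and against Lamp5 nuclei, 91 of 604 passed (15.1%; 33, or 5.46%, higher and 58, or 9.6%, lower; 15 mice). The split by direction moved with the settings: with no filter on low counts 75 were higher and 488 lower against Sst and 75 and 31 against Pvalb nuclei, after thinning 5 were higher and 0 lower against Pvalb nuclei, and with at least 2 Vip UMIs and mice of at least 4 such nuclei the splits were 76 and 54, 18 and 10, and 30 and 25 for Sst, Pvalb and Lamp5. In the paragraphs on these classes, levels are CPM of the summed UMIs by mouse, differences are log2 fold changes of Vip nuclei against the other class, and each gene called higher or lower passed edgeR's adjusted p of 0.05.

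Adarb2 had the largest log2 fold change of all genes tested against Sst and against Pvalb nuclei, and against Lamp5 nuclei Cnr1, Npy and Grin2a differed by more. In Vip nuclei it ranged from 737 to 2303 CPM over 15 mice (median 1261), and in the Sst nuclei of the same mice from 126 to 376 CPM (median 171). The 2 ranges did not overlap, and the log2 fold change was 2.80 (SE 0.10, adjusted p = 9.52e-51). Against Pvalb nuclei, which had 0 to 218 CPM, it was 3.79 (SE 0.26, adjusted p = 4.48e-38). Lamp5 interneurons share the caudal origin in part. Lamp5 nuclei had 343 to 855 CPM, and the log2 fold change was 1.10 (SE 0.11, edgeR adjusted p = 3.86e-11), with Vip nuclei higher in 15 of 15 mice.

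All 5 markers of caudal or Vip interneurons that could be tested against Sst nuclei, of 27 in the list, were higher in Vip nuclei (median log2 fold change 0.77, against 0.0053 over all genes tested). Besides Adarb2 these were Cnr1 (1.44, SE 0.12), Synpr (0.77, SE 0.18), Npas1 (0.63, SE 0.19) and Cck (0.53, SE 0.09), of which Synpr, Npas1 and Cck did not pass with no filter on low counts and Npas1 not without the block. Cnr1 ranged from 145 to 1527 CPM in Vip nuclei and from 133 to 398 CPM in Sst nuclei, with overlap but higher values in Vip nuclei in 14 of 15 mice. Against Lamp5 nuclei, all 3 that could be tested were higher: Adarb2, Cnr1 (1.33, SE 0.15) and Cck (0.51, SE 0.11). Since each of these lists names the cell types that the markers define, this is a check of the classes, made with members of 1 Vip UMI included.

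Other genes higher in Vip than in Sst nuclei included Kit, a receptor tyrosine kinase, at 72 to 831 CPM in Vip nuclei and 43 to 197 CPM in Sst nuclei (log2 fold change 1.68, SE 0.14, higher in 15 of 15 mice). Dlx1, a homeobox factor of forebrain interneurons (0.96, SE 0.18), and Dlx6os1, a transcript antisense to Dlx6 in that gene cluster (1.49, SE 0.11), were also higher, although whether reads were counted by strand is not given in the sources used here. Csmd3, a large membrane protein gene, was higher against all 3 classes. The differences were 1.39 (SE 0.11), 1.84 (SE 0.23) and 0.46 (SE 0.13) for Sst, Pvalb and Lamp5, the last not passing with no filter on low counts. Kcnn2, a calcium-activated potassium channel of small conductance, was higher than in Sst nuclei by 1.15 (SE 0.18), and Cpne7, a calcium-dependent membrane-binding protein, by the same 1.15 (SE 0.18).

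Other genes lay between the classes. Nfib, a nuclear factor I transcription factor, was higher in Vip than in Sst nuclei (0.82, SE 0.12) and Pvalb nuclei (1.57, SE 0.27) but lower than in Lamp5 nuclei, where it ranged from 377 to 1028 CPM against 277 to 700 CPM in Vip nuclei (-0.85, SE 0.12, lower in 14 of 15 mice). Kit was likewise lower in Vip than in Lamp5 nuclei (-0.81, SE 0.15, lower in 13 of 15 mice), as was Cacna2d1, a calcium channel subunit, which was higher than in Sst nuclei (0.84, SE 0.15) and lower than in Lamp5 nuclei (-0.82, SE 0.17).

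Of 32 synaptic adhesion genes, 13 could be tested against Sst nuclei, with 6 higher and 1 lower in Vip nuclei, 7 against Pvalb nuclei, with 4 higher and 1 lower, and 8 against Lamp5 nuclei, with 3 higher and 2 lower. Over all genes tested, 4.23%, 3.98% and 5.46% were higher and 3.47%, 7.03% and 9.6% lower against the 3 classes. Nrxn2, a presynaptic adhesion gene, was higher against Sst, Pvalb and Lamp5 nuclei by 0.42 (SE 0.12), 0.87 (SE 0.25) and 0.57 (SE 0.13), and Nrxn3 by 0.33 (SE 0.07), 0.97 (SE 0.16) and 0.79 (SE 0.10). Against Sst nuclei both did not pass without the block or with no filter on low counts, and Nrxn2 did not pass against Pvalb nuclei by DESeq2 or against Lamp5 nuclei with no filter. Ptprd, a receptor phosphatase at synapses, was higher than in Sst (0.89, SE 0.10) and Pvalb nuclei (1.17, SE 0.20). Erbb4, the neuregulin receptor of interneurons, was higher than in Sst nuclei (0.89, SE 0.12), and its differences from Pvalb (-0.29) and Lamp5 nuclei (0.25) did not pass. Cntnap5a was lower than in Sst nuclei (-0.88, SE 0.15), and Il1rapl1, an adhesion protein of excitatory synapses, was lower than in Pvalb (-0.91, SE 0.21) and Lamp5 nuclei (-0.69, SE 0.12), the former not without the block, with no filter or after thinning.

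Glutamate receptor genes that passed were all lower in Vip nuclei, in each of the 3 comparisons: 5 of 11 tested against Sst, 3 of 7 against Pvalb and 5 of 10 against Lamp5, where 3.47%, 7.03% and 9.6% of all genes tested were lower. Gria3, an AMPA receptor subunit, ranged from 209 to 590 CPM in Vip nuclei and from 582 to 991 CPM in Sst nuclei (-0.98, SE 0.11, lower in 15 of 15 mice). It was also lower than in Pvalb (-1.07, SE 0.21) and Lamp5 nuclei (-0.83, SE 0.14). Gria4 was lower against all 3, by -0.46 (SE 0.14), -0.95 (SE 0.24) and -0.72 (SE 0.16), and Gria1 against Sst (-0.88, SE 0.12) and Pvalb nuclei (-0.69, SE 0.23). The NMDA receptor subunit gene Grin3a, a marker of Sst cells, had 0 to 145 CPM in Vip and 148 to 374 CPM in Sst nuclei, with no overlap (-1.84, SE 0.20). Grin2a was lower than in Lamp5 nuclei (187 to 1014 against 634 to 1312 CPM; -1.27, SE 0.14), and Grik1, a kainate receptor subunit, was lower than in Sst (-0.52, SE 0.16) and Lamp5 nuclei (-0.90, SE 0.18). By DESeq2, Gria4 and Grik1 did not pass against Sst nuclei, nor Gria4 and Gria1 against Pvalb nuclei. Without the block Gria4 and Grik1 against Sst and Gria1 against Pvalb nuclei did not pass, and with no filter Gria4 and Gria1 did not pass against Pvalb nuclei. Grik1 also did not pass against Sst nuclei with at least 2 Vip UMIs and mice of at least 4 such nuclei.

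Of the markers of medial origin, 7 of 19 could be tested against Sst nuclei, and 6 were lower in Vip nuclei: Grin3a, Satb1 (-1.41, SE 0.20), Nxph1 (-1.19, SE 0.21), Calb1 (-0.74, SE 0.19), Npy (-0.67, SE 0.15) and Kcnc2 (-0.53, SE 0.18). Npy, the neuropeptide Y gene, was also lower than in Lamp5 nuclei (-1.33, SE 0.18). Lamp5 interneurons include neurogliaform cells that release neuropeptide Y. Against Pvalb nuclei, both markers that could be tested, the fast potassium channel genes Kcnc1 (-1.07, SE 0.21) and Kcnc2 (-1.22, SE 0.25), were lower. Scn1a, the sodium channel gene of fast-spiking cells, was lower than in Pvalb nuclei (-0.80, SE 0.21), whereas Scn2a was higher (0.73, SE 0.22). Neither passed by DESeq2, Scn1a did not pass with no filter, and Kcnc2 against Sst nuclei did not pass by DESeq2 or without the block. Npy against Sst nuclei did not pass without the block. Reln, the extracellular matrix protein reelin, was lower than in Sst nuclei (-1.27, SE 0.20), as were Ralyl (-1.43, SE 0.19), the zinc finger factor gene Bcl11a (-1.09, SE 0.19) and the neuronal RNA-binding protein gene Elavl2 (-0.96, SE 0.13). Elavl2 was lower than in Pvalb nuclei as well (-1.22, SE 0.24).

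Of the cytosolic ribosomal protein genes, 0 of 76 passed against Sst and 0 of 48 against Pvalb nuclei by edgeR (adjusted p of 0.05), and 2 of 54, Rpl32 (0.41, SE 0.15) and Fau (0.43, SE 0.13), were higher than in Lamp5 nuclei, where 5.46% of all genes tested were higher. No nuclear oxidative phosphorylation gene of the list passed against Sst or Pvalb nuclei. Of 25 tested against Lamp5 nuclei, Ndufs5 (0.49, SE 0.16), Ndufa4 (0.38, SE 0.12) and Cox7c (0.36, SE 0.12) were higher. Most alternatives ended these calls: Rpl32 did not pass in 4 of 5, Fau in 4 of 6, Ndufs5 in 4 of 5, Ndufa4 in 5 of 7 and Cox7c in 6 of 7, among them the fit without the block and DESeq2. No gene of the astrocyte list passed in any of the 3 comparisons. Of the 107 single differences examined from these comparisons, 61 passed in every alternative in which the gene was tested and 46 did not pass in at least 1. Without the block, 9 of 43 did not pass against Sst, 7 of 28 against Pvalb and 13 of 36 against Lamp5 nuclei.

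**Figure D4:**
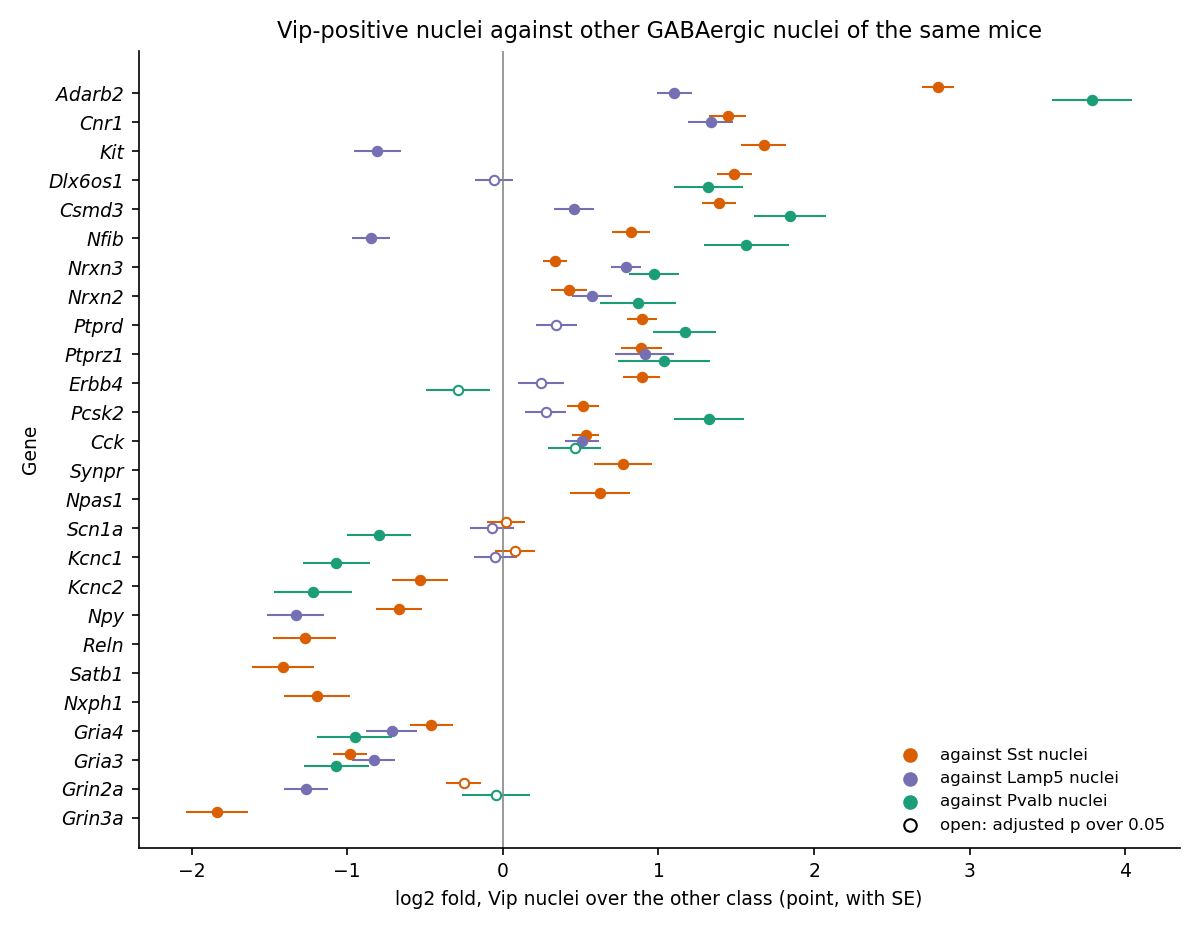
Log2 fold change of named genes (y axis) in Vip nuclei over Sst, Lamp5 and Pvalb nuclei of the same mice (x axis; points with SE bars from edgeR, coloured by class). Filled points passed an adjusted p of 0.05, open points did not, and a missing point was not tested: Adarb2 lies at 2.80, 1.10 and 3.79, and Gria3 at -0.98, -0.83 and -1.07.

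The comparisons between groups were made on Vip nuclei summed per mouse, with 15 mice in 1 fit. 3xTg-AD alcohol mouse 34, with 9 members, was left out, so that group had 3 mice, and 849 genes passed the filter on low counts. Few genes passed an adjusted p of 0.05 by edgeR. Against WT control mice, 3 passed in 3xTg-AD alcohol (0.353%), 1 in 3xTg-AD (0.118%) and 1 in WT alcohol mice (0.118%), and these 3 comparisons share the same WT control mice. Between 3xTg-AD alcohol and 3xTg-AD mice 1 passed (0.118%), and averaged over the other factor 2 passed for genotype (0.236%) and 3 for alcohol (0.353%). Between 3xTg-AD alcohol and WT alcohol mice 0 passed (0.0%; 55 at an unadjusted p under 0.05, 0 by DESeq2), and for the interaction of genotype and alcohol 0 passed (0.0%; 41 at an unadjusted p under 0.05, 0 by DESeq2). Without the 3 mice with the most Gm42418, 4 genes were higher and 5 lower in 3xTg-AD alcohol than in WT alcohol mice. None of these mice was in either group, so this count also moved with mice outside the comparison. Levels below are CPM after TMM scaling. The spread between members of a group is that between mice, each 1 library.

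Tmsb4x was higher in 3xTg-AD mice averaged over alcohol. It encodes thymosin beta 4, which binds actin monomers, and lies on the minus strand of chromosome X from 167207093 to 167209315. WT control mice 26, 27, 28 and 36 had 814, 1059, 1498 and 1160 CPM, and WT alcohol mice 6, 7, 17 and 18 had 1594, 1733, 1649 and 1927 CPM. 3xTg-AD mice 12, 13, 14 and 21 had 2278, 3035, 3462 and 3716 CPM, and 3xTg-AD alcohol mice 4, 31 and 33 had 3362, 2916 and 3531 CPM. Every 3xTg-AD mouse was above every WT mouse, and every WT alcohol mouse was above every WT control mouse. The log2 fold change for genotype was 1.19 (SE 0.17, edgeR adjusted p = 1.79e-07). Against WT control it was 1.54 in 3xTg-AD alcohol (SE 0.25, adjusted p = 1.13e-05) and 1.46 in 3xTg-AD mice (SE 0.25, adjusted p = 2.35e-05), whereas the difference for WT alcohol (0.61, adjusted p = 0.34) and the interaction (-0.53, adjusted p = 0.973) did not pass. Between the alcohol groups, 3xTg-AD alcohol against WT alcohol, the difference was 0.93 and did not pass (SE 0.24, adjusted p = 0.0765). Without the 3 mice with the most Gm42418 the difference was 1.13 for genotype (adjusted p = 3.49e-06), 1.29 between 3xTg-AD alcohol and WT control (adjusted p = 0.00463) and 1.35 between 3xTg-AD and WT control (adjusted p = 0.00967). The difference between 3xTg-AD alcohol and WT control did not pass with the share of ribosomal RNA-associated transcripts as a covariate (1.23, adjusted p = 0.0724), and that between 3xTg-AD and WT control did not pass after thinning (1.15, adjusted p = 0.0912). The genotype difference passed in all 26 alternatives. Beside it, the summed level of 12 microglia markers in the member nuclei of the mice fitted was 46.1 to 112 CPM in WT control, 185 to 240 in WT alcohol, 117 to 579 in 3xTg-AD and 93.3 to 252 CPM in 3xTg-AD alcohol mice, from 2 to 16 UMIs per mouse, so that WT control lay below 3xTg-AD without overlap and the alcohol groups overlapped. Its part in the difference was not tested.

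Tmsb4x had higher group means in both 3xTg-AD groups than in both WT groups in the other nuclei as well. In unscaled CPM, group means in WT control, WT alcohol, 3xTg-AD and 3xTg-AD alcohol mice were 1209, 1610, 2710 and 2736 in Sst nuclei, 1181, 1468, 2649 and 2325 in Lamp5 nuclei, and 893, 1335, 2214 and 2058 in glutamatergic nuclei (n = 4 each), and 1099, 1788, 3143 and 3334 in Vip nuclei. The 3xTg-AD alcohol mean was the higher of the 3xTg-AD groups in Vip and Sst nuclei and the lower in Lamp5 and glutamatergic nuclei. Unlike in Vip nuclei, the genotypes overlapped in all of these other classes. The lowest 3xTg-AD mouse without alcohol and the highest WT alcohol mouse had 1653 and 1972 CPM in Sst nuclei. They had 1064 and 1594 CPM in Lamp5 and 1275 and 1440 CPM in glutamatergic nuclei. These other nuclei are given as a description, without a test. Tmsb10, the other thymosin of the list, did not pass the filter.

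Rnf121, which encodes a ubiquitin ligase of the endoplasmic reticulum and Golgi and lies on chromosome 7 from 102019137 to 102065469, was lower in 3xTg-AD mice. WT control mice had 151, 362, 321 and 438 CPM and WT alcohol mice 329, 1064, 74 and 599 CPM in the order above. 3xTg-AD mice had 0, 69, 0 and 0 CPM and 3xTg-AD alcohol mice 44, 24 and 57 CPM, so that all 7 lay below all 8 WT mice, although mouse 17 of the WT alcohol group, at 74 CPM, lay close to them. The genotype difference was -3.58 on the log2 scale (SE 0.70, edgeR adjusted p = 0.0433), a fitted value that depends on the prior count where a group is near 0. It was -3.50 (adjusted p = 4.83e-06) without the 3 mice with the most Gm42418. The adjusted p exceeded 0.05 without doublet-like members (-3.82, adjusted p = 0.182), without WT control mouse 28 (0.0973) or 36 (0.0677), without 3xTg-AD mouse 12 (0.125), 13 (0.245), 14 (0.0772) or 21 (0.188) and without 3xTg-AD alcohol mouse 31 (0.271) or 33 (0.102), with differences of -5.00 to -3.37. Glutamatergic nuclei showed group means of 596 and 715 unscaled CPM in the WT groups and 20.4 and 20.4 CPM in the 3xTg-AD groups, with 21.1 to 1265 CPM among WT alcohol mice. The lowest WT alcohol mouse there lay within the 3xTg-AD range of 18.1 to 21.8 CPM, so the genotypes overlapped. It also did so in Sst nuclei (25.6 against 12.7 to 45.5 CPM) and in Lamp5 nuclei (23.9 against 0 to 119 CPM), without a test.

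Stmn3, a stathmin that regulates microtubules in neurons, was higher after alcohol in WT mice. WT control mice had 362, 258, 285 and 258 CPM and WT alcohol mice 936, 630, 662 and 651 CPM, without overlap, and the log2 fold change was 1.33 (SE 0.30, edgeR adjusted p = 0.0154). Between the same WT groups the microglia markers also did not overlap, and 12 endothelial and mural markers, of which Slco1a4, Adgrl4, Abcc9 and Kcnj8 were at 0, summed to 0 to 46.1 CPM in WT control and 30.0 to 211 CPM in WT alcohol mice (0 to 8 UMIs per mouse). Their part in the difference was not tested. The 3xTg-AD mice had 396, 655, 490 and 676 CPM and the 3xTg-AD alcohol mice 655, 593 and 802 CPM, and these 2 groups overlapped. Between them the difference was 0.35 and did not pass (SE 0.30, edgeR adjusted p = 0.928), nor did the interaction (-0.98, SE 0.43, adjusted p = 0.865). Every 3xTg-AD mouse without alcohol also lay above every WT control mouse, by a difference of 0.89 that did not pass (SE 0.34, adjusted p = 0.794). Against WT control, the 3xTg-AD alcohol mice were higher by 1.24 (adjusted p = 0.0421), and alcohol averaged over genotype gave 0.84 (adjusted p = 0.0447). The 3 differences that passed are taken in the order WT alcohol and 3xTg-AD alcohol against WT control, then alcohol averaged over genotype. Without the 3 mice with the most Gm42418, they were 1.44 (adjusted p = 0.0434), 1.32 (adjusted p = 0.0745) and 0.82 (adjusted p = 0.0994). The first did not pass without WT control mouse 36 (1.28, adjusted p = 0.0638) or WT alcohol mouse 6 (1.16, adjusted p = 0.13). The second did not pass without WT control mouse 26, 27, 28 or 36, WT alcohol mouse 18, 3xTg-AD mouse 13 or 3xTg-AD alcohol mouse 4 or 33 (1.09 to 1.34, adjusted p of 0.0502 to 0.458). The third did not pass without WT control mouse 28, WT alcohol mouse 6 or 17, 3xTg-AD mouse 12 or 13, or 3xTg-AD alcohol mouse 33 (0.75 to 0.89, adjusted p of 0.0513 to 0.17). None of the 3 passed by DESeq2 (adjusted p of 0.16, 0.212 and 0.298) or with the ribosomal RNA-associated share as a covariate (0.113, 0.254 and 0.268). With no filter on low counts, the first (adjusted p = 0.0502) and the second (0.0562) did not pass. The second also did not pass with RLE scaling (0.0706), without doublet-like members (0.0513) or with at least 500 genes and at most 5% mitochondrial UMIs per nucleus (0.0539), and after thinning neither the second (0.0832) nor the third (0.112) passed. With at least 2 Vip UMIs and mice of at least 4 such nuclei, the first (0.192) and the third (0.139) did not pass. Group means of Stmn3 in WT control and WT alcohol mice were 461 and 626 unscaled CPM in Sst nuclei. They were 399 and 475 in Lamp5 and 287 and 443 in glutamatergic nuclei (n = 4 each), without a test. These groups overlapped in Sst and Lamp5 nuclei but not in glutamatergic nuclei (212 to 361 and 408 to 467 CPM).

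Clk1, a kinase that phosphorylates splicing factors, was higher in 3xTg-AD alcohol than in WT control mice. WT control mice had 151, 284, 250 and 155 CPM and 3xTg-AD alcohol mice 415, 735 and 592 CPM, without overlap (log2 fold change 1.45, SE 0.35, edgeR adjusted p = 0.0207). WT alcohol mice had 381, 355, 412 and 495 CPM and 3xTg-AD mice 462, 621, 294 and 743 CPM, all above every WT control mouse. Against WT control, the differences of 0.97 in WT alcohol (edgeR adjusted p = 0.245) and 1.26 in 3xTg-AD mice (adjusted p = 0.216) did not pass. Nor did those for genotype (0.87, adjusted p = 0.0864) or between 3xTg-AD alcohol and 3xTg-AD mice (0.20, adjusted p = 0.969). Without the 3 mice with the most Gm42418 the difference between 3xTg-AD alcohol and WT control was 1.53 (adjusted p = 0.0564). It did not pass without WT control mouse 26 (1.32, adjusted p = 0.101) or 36 (1.32, adjusted p = 0.137) or without 3xTg-AD alcohol mouse 31 (1.25, adjusted p = 0.0982) or 33 (1.42, adjusted p = 0.142). Nor did it pass by DESeq2 (1.42, adjusted p = 0.173), with the ribosomal RNA-associated share as a covariate (1.45, adjusted p = 0.184) or after thinning (1.09, adjusted p = 0.215). Group means of Clk1 in WT control and 3xTg-AD alcohol mice were 346 and 541 unscaled CPM in Sst nuclei. They were 392 and 506 in Lamp5 and 332 and 489 in glutamatergic nuclei (n = 4 each), without a test. These groups overlapped in each of these classes.

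Apoe, the apolipoprotein of brain lipid transport that is made chiefly by astrocytes and is the major risk gene for late-onset Alzheimer disease, was higher in 3xTg-AD alcohol than in 3xTg-AD mice. The former had 1747, 1209 and 2214 CPM and the latter 396, 655, 621 and 1013 CPM, without overlap (log2 fold change 1.44, SE 0.32, edgeR adjusted p = 0.0369). WT control mice had 1266, 775, 428 and 1237 CPM and WT alcohol mice 1023, 945, 559 and 1562 CPM, and the interaction did not pass (1.35, adjusted p = 0.684). After each member had been thinned to 1000 UMIs the difference was 1.73 (adjusted p = 0.00944), with 3 3xTg-AD mice left in the fit, so mice and depth changed together. It was 1.19 (adjusted p = 0.689) when mouse 34 was included by a minimum of 5 nuclei. Among members with at least 2 Vip UMIs, in mice with at least 4 such nuclei (4 mice in each group), it was 0.81 (adjusted p = 0.597). Without the 3 mice with the most Gm42418, of which 1 was in the 3xTg-AD group, it was 1.24 (adjusted p = 0.011). It did not pass by DESeq2 (1.39, adjusted p = 0.267), with the ribosomal RNA-associated share as a covariate (1.46, adjusted p = 0.0797) or without doublet-like members (1.31, adjusted p = 0.0911). It also did not pass without WT alcohol mouse 6 (1.43, adjusted p = 0.102) or 7 (1.44, adjusted p = 0.0504), without 3xTg-AD mouse 12 (1.23, adjusted p = 0.531), 13 (1.43, adjusted p = 0.259) or 14 (1.43, adjusted p = 0.0989), or without 3xTg-AD alcohol mouse 33 (1.19, adjusted p = 0.33). Beside it, the summed level of 12 astrocyte markers in member nuclei was 1330 to 2058 CPM (median 1793) in the 3 3xTg-AD alcohol mice fitted and 437 to 1521 CPM (median 763) in the 4 3xTg-AD mice, with all 12 detected. It was thus higher at the median where Apoe was higher, and its part in the difference was not tested. In mouse 34, which was left out of the fit, it was 611 CPM. Group means of Apoe in 3xTg-AD and 3xTg-AD alcohol mice were, in unscaled CPM, 974 and 1542 in Sst, 748 and 1150 in Lamp5 and 645 and 802 in glutamatergic nuclei (n = 4 each), without a test. Their ranges overlapped in each of these classes. They were 280 to 1436 and 818 to 2892 CPM in Sst nuclei, and 194 to 1288 and 320 to 1623 CPM in Lamp5 nuclei. In glutamatergic nuclei they were 317 to 807 and 502 to 1401 CPM.

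The other genes that passed for alcohol averaged over genotype were Crebzf and A330076H08Rik. Crebzf, a basic leucine zipper regulator of stress responses, was lower in alcohol mice: 452, 517, 428 and 516 CPM in WT control, 726, 379, 359 and 270 in 3xTg-AD, 225, 158, 206 and 208 in WT alcohol and 240, 284 and 229 in 3xTg-AD alcohol mice (log2 fold change -1.04, SE 0.24, edgeR adjusted p = 0.0324). Alcohol and control mice did not overlap within the WT animals and did overlap within the 3xTg-AD animals. Without the 3 mice with the most Gm42418 the difference was -0.84 (adjusted p = 0.229), and it did not pass by DESeq2 (-1.07, adjusted p = 0.12), with the ribosomal RNA-associated share as a covariate (-0.85, adjusted p = 0.268), with no filter on low counts (-0.81, adjusted p = 0.478), without 3xTg-AD mouse 12 (-0.85, adjusted p = 0.161) or 3xTg-AD alcohol mouse 33 (-1.01, adjusted p = 0.159). A330076H08Rik, a noncoding transcript on chromosome 7 that fell outside the naming rule and was named after its values were seen, was higher in alcohol mice by 1.04 (SE 0.27, adjusted p = 0.0447). It had 107 to 233 CPM in WT control, 158 to 651 in WT alcohol, 138 to 270 in 3xTg-AD and 328 to 420 CPM in 3xTg-AD alcohol mice. Its adjusted p was 0.0476 without the 3 mice, 0.315 by DESeq2 and 0.0794 with the covariate, and exceeded 0.05 without any 1 of 7 mice (WT control 26 and 28, WT alcohol 17 and 18, 3xTg-AD 12 and 13, 3xTg-AD alcohol 33), with differences of 0.93 to 1.07. Group means in other nuclei follow in unscaled CPM, for WT control, WT alcohol, 3xTg-AD and 3xTg-AD alcohol mice (n = 4 each), without a test. Crebzf had 376, 293, 365 and 256 in Sst and 368, 318, 215 and 206 in Lamp5 nuclei. In glutamatergic nuclei it had 339, 245, 297 and 239. A330076H08Rik had 245, 279, 261 and 422 in Sst and 163, 275, 178 and 365 in Lamp5 nuclei. In glutamatergic nuclei it had 131, 174, 133 and 243.

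**Figure D5:**
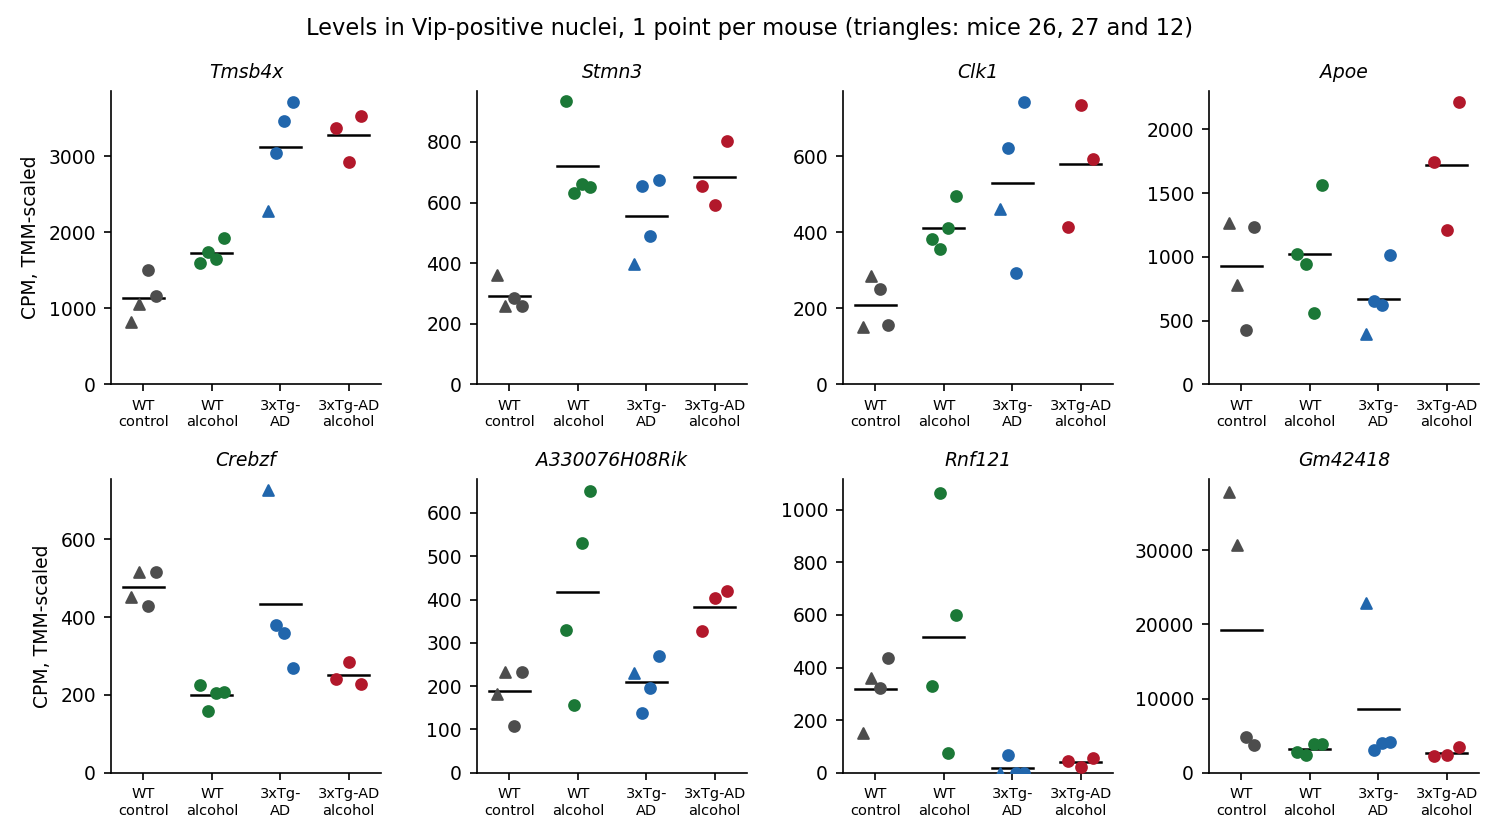
CPM after TMM scaling (y axis) in Vip nuclei by group (x axis) for the 7 genes that passed in a comparison between groups and for Gm42418; points are mice, triangles mark mice 26, 27 and 12, and lines are group means. Every 3xTg-AD mouse lies above every WT mouse for Tmsb4x, and 3xTg-AD mice lie at 0 to 69 CPM for Rnf121.

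Markers of caudal and Vip interneurons gave no call between groups, and the genes of the rule itself were left out of the tests. Of the 27 in the list, 5 could be tested (Adarb2, Cnr1, Cck, Synpr and Tac2), and 0 passed by edgeR in any of the 8 contrasts (0 at an unadjusted p under 0.05 for genotype or for alcohol), with medians of -0.12 for genotype and 0.04 for alcohol against -0.0034 and 0.0090 over all genes tested. Adarb2 ranged from 827 to 2217 CPM in WT control, 1120 to 1891 in WT alcohol, 1013 to 1717 in 3xTg-AD and 974 to 1310 CPM in 3xTg-AD alcohol mice, overlapping throughout (genotype -0.13, adjusted p = 0.895; alcohol -0.30, adjusted p = 0.474). Cnr1 ranged from 207 to 1469, 495 to 1127, 135 to 957 and 554 to 742 CPM in the same order (genotype -0.12, adjusted p = 0.944; alcohol 0.04, adjusted p = 0.969). Synpr ranged from 151 to 178, 260 to 315, 69.0 to 261 and 76.4 to 175 CPM. WT alcohol mice thus lay above WT control and 3xTg-AD alcohol mice without overlap. Its difference between 3xTg-AD alcohol and WT alcohol mice was -1.30 and did not pass (SE 0.48, edgeR adjusted p = 0.392).

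The mouse genes related to the transgenes also did not pass. Thy1, whose promoter cassette drives them, differed by -0.14 for genotype (adjusted p = 0.912), App by -0.40 (adjusted p = 0.668), and Mapt, the tau gene, by 0.19 (adjusted p = 0.895). Of the genes that the study named in VIP neurons, a list chosen on these samples, only Lars2, a mitochondrial leucyl-tRNA synthetase, passed the filter. It was at 3014 and 2274 CPM in WT control mice 26 and 27 and 1684 CPM in 3xTg-AD mouse 12, the mice with the most Gm42418, and at 172 to 469 CPM in the other 12, and did not pass for alcohol (-1.55, adjusted p = 0.304) or genotype (-0.55, adjusted p = 0.894). Against WT control mice, Lars2 differed by -2.09 in 3xTg-AD alcohol (SE 0.82, edgeR adjusted p = 0.449), -2.12 in WT alcohol (SE 0.76, adjusted p = 0.353) and -1.12 in 3xTg-AD mice (SE 0.74, adjusted p = 0.927), and without the 3 mice these differences were -0.10, -0.11 and -0.23 (adjusted p of 0.973, 0.967 and 0.993).

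The ribosomal, mitochondrial, glutamate receptor and synaptic adhesion lists had no gene that passed for alcohol or genotype by edgeR. Their medians and counts above 0 are a description, and no difference of a list from the other genes was tested. Over all genes tested the median was 0.0090 for alcohol and -0.0034 for genotype. Of the cytosolic ribosomal protein genes, 66 of 84 could be tested and 0 passed in any contrast by edgeR. Their median for alcohol was 0.29 with 56 of 66 above 0 and 17 at an unadjusted p under 0.05, and for genotype 0.01 with 34 above 0 and 4 at such a p. The 10 mitochondrially encoded genes tested had a median of 0.30 for alcohol with 9 above 0 and 3 at an unadjusted p under 0.05, and 0 passed. The 10 glutamate receptor genes tested had a median of -0.23 for alcohol with 0 above 0 and 2 at an unadjusted p under 0.05, and 0 passed, and the 12 synaptic adhesion genes had medians of -0.17 for alcohol and -0.11 for genotype with 1 and 2 at such a p and 0 called. Without the 3 mice with the most Gm42418, the medians for alcohol were 0.31 for ribosomal (58 of 70 above 0), 0.30 for mitochondrially encoded (9 of 10), -0.24 for glutamate receptor (2 of 10) and -0.07 for synaptic adhesion genes (4 of 12), with 16, 3, 0 and 3 at such a p against 100 of all 988 genes tested. In that setting Rps2 passed for alcohol (1.22, SE 0.32, adjusted p = 0.0286) and Rps16 between 3xTg-AD alcohol and WT alcohol mice (1.17, SE 0.33, adjusted p = 0.0438), both named after their values were seen. Of 28 genes at Alzheimer disease loci 7 could be tested, and 0 passed for genotype or for alcohol (1 and 2 at an unadjusted p under 0.05). Over all 849 genes, 111 had an unadjusted p under 0.05 for alcohol and 61 for genotype, and DESeq2 called 0 genes for alcohol and 2 for genotype.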

How the data were processed

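Members were nuclei that met the marker limits in the deposited counts, which the authors made with Cell Ranger 6.1.1, STAR and mm10 per their processing notes. Values are UMI counts per gene and nucleus in 1 table, not normalized; the limits of the authors' filter on nuclei were not given in the sources used here, and no nucleus was removed. Groups came from the sample labels. Counts were summed per mouse (at least 10 nuclei) and fitted in R 4.3.3 by the robust quasi-likelihood method of edgeR 4.0.16 after filterByExpr and TMM scaling, with Benjamini-Hochberg adjustment over every gene tested. Alternatives were DESeq2 1.42.0, RLE scaling, no filter, other member limits, thinning to 1000 UMIs and leaving out mice. Settings requiring 4 or 5 nuclei per mouse were chosen after seeing the data. Shares and depth were tested by two-sided permutation, exact for 4 against 4 mice and with 100000 resamples for 8 against 8, in scipy 1.17.1. No doublet caller was run, and 36 doublet-like members, with at least 2 UMIs over the defining markers of another cell class, were left out as an alternative. Genes were named by a rule (up to 12 called genes per contrast, the 8 of largest fold each way per class comparison, and fixed lists). Members and lists were chosen with earlier results of these data known. Mouse paired the classes because both came from 1 animal. A planned comparison of Calb2 with Cck members was not run, since under 6 mice had at least 10 of both. Loci are from GENCODE for mm10. Limits on shares cover counting error only. The tests were tried on simulated data first. Some genes that were tested and counted are not reported here.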

Additional observations from a re-analysis of the deposited data

Results flagged for a closer look

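Within groups of 4 mice, 4 of 50 sets of values had 1 mouse whose gap to the nearest other mouse took up most of the group's range, by Dixon's 95% limit, which chance exceeds in about 1 in 20 groups. Meis2 was found in 30.4% of the members of 3xTg-AD alcohol mouse 31, against 7.69%, 10.0% and 11.1% in the other 3 mice of that group. Adarb2 was found in 73.7% of the members of 3xTg-AD mouse 14, against 45.5%, 47.4% and 50% in the other 3, and in that mouse 14 of 19 members had at least 5 Vip UMIs. Stmn3 was at 936 CPM in WT alcohol mouse 6, against 630, 651 and 662 CPM. Rnf121 was at 69.0 CPM in 3xTg-AD mouse 13 and at 0 in the other 3.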

How the results depend on the processing

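The number of genes called between groups was small and moved with most choices. Thinning and leaving out doublet-like members each left 3 3xTg-AD mice in the fit. Requiring at least 2 Vip UMIs left 3 WT control, 4 WT alcohol, 1 3xTg-AD and 1 3xTg-AD alcohol mouse. Its counts thus rest on arms of 1 mouse, assumed to vary like the other groups. The lists of settings in which a single gene did not pass leave this fit out and so are not complete. A minimum of 4 such nuclei kept 4 mice in each group. Between 3xTg-AD alcohol and WT control mice, 3 genes passed, and 1 by DESeq2, 5 without the 3 mice with the most Gm42418, 0 with the ribosomal RNA-associated share as a covariate, 5 with at least 2 Vip UMIs (7 with mice of at least 4 such nuclei), 1 after thinning and 1 to 5 without any 1 mouse. Between 3xTg-AD alcohol and WT alcohol mice, 0 passed, and 1 with no filter on low counts, 9 without the 3 mice, 1 with at least 2 Vip UMIs under either minimum, 2 with mice of at least 5 nuclei and 0 to 2 without any 1 mouse. Between 3xTg-AD alcohol and 3xTg-AD mice, 1 passed, and 2 without the 3 mice, 0 by DESeq2, with the covariate, with at least 2 Vip UMIs under either minimum, without doublet-like members and with mice of at least 5 nuclei, and 0 to 3 without any 1 mouse. For 3xTg-AD against WT control, 1 passed, and 2 with no filter or with at least 2 Vip UMIs, 0 after thinning and 1 to 2 without any 1 mouse. For WT alcohol against WT control, 1 passed (1 higher, 0 lower), and 1 with the covariate, in the other direction (0 higher, 1 lower). The count was 0 by DESeq2, with no filter or with at least 2 Vip UMIs and mice of at least 4 such nuclei. It was 5 without the 3 mice, 2 without doublet-like members and 0 to 6 without any 1 mouse. For the interaction, 0 passed, and 0 to 2 without any 1 mouse. For genotype, 2 passed, and 4 without the 3 mice, 1 without doublet-like members or after thinning and 1 to 5 without any 1 mouse. For alcohol, 3 passed (2 higher, 1 lower), and 0 by DESeq2 or with the covariate, 5 with RLE scaling (2 higher, 3 lower), with no filter (5 higher, 0 lower) or with at least 500 genes and at most 5% mitochondrial UMIs per nucleus (4 higher, 1 lower), 6 without the 3 mice, 1 after thinning or with at least 2 Vip UMIs and mice of at least 4 nuclei, and 0 to 10 without any 1 mouse.

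Class comparisons were fitted with mouse as a replicate block. Without the block, 58 genes passed against Sst, 30 against Pvalb and 47 against Lamp5 nuclei. With no filter 563, 106 and 145 passed, and after thinning 30, 5 and 30. DESeq2 gave 73, 19 and 44, and members with at least 2 Vip UMIs in mice of at least 4 such nuclei, 2 choices changed at once, gave 130, 28 and 55. Without WT control mouse 27 the counts were 93, 40 and 90. No paired analysis was possible because, between groups, mouse numbers belong to single animals.

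No comparison of the share passed in any setting. Its difference changed sign with all nuclei as the denominator for 3xTg-AD alcohol against WT control (-0.0740), WT alcohol (-0.0577) and 3xTg-AD (0.0236), for 3xTg-AD against WT control (-0.0975), for genotype (-0.0776) and for alcohol (0.00364). With at least 2 Vip UMIs it was -0.856, -0.622 and, for 3xTg-AD against WT control, -0.552, and -0.587 for genotype. After thinning it was 0.301 for 3xTg-AD alcohol against 3xTg-AD, 0.647 for WT alcohol against WT control and 0.474 for alcohol. Without any 1 mouse it ranged from -0.275 to 1.13, 0.0417 to 1.45, -1.58 to 0.107, 0.236 to 1.92 and -0.857 to 0.150 for the 5 group comparisons in the order of the first paragraph, 0.456 to 1.30 for genotype and -0.872 to -0.0878 for alcohol. With mean in place of median UMIs, WT alcohol differed from WT control by -10.3 and genotype by -10.7, and without any 1 mouse 3xTg-AD differed from WT control by -179 to 115 and genotype by -4.54 to 188. Thy1 for genotype ranged from -0.37 to 0.060 without any 1 mouse (0.060 without WT control mouse 26) and was 0.10 with at least 2 Vip UMIs, and Gm42418 against Lamp5 nuclei was -0.0073 with at least 2 Vip UMIs and mice of at least 4 such nuclei. The causes were not tested. With 9 to 35 members per mouse and 849 genes tested, a difference that did not pass may have been below what this depth detects.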
